A study of Mus musculus with 3 samples.

Results

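A set of 6 surface marker genes of hair follicle stem cells, Cd34, Lgr5, Lgr6, Lrig1, Cd200 and Plet1, were followed across 3 sorted cell populations of mouse back-skin epidermis. The 6 genes were chosen by name, as surface markers in use for the compartments of the follicle. All 6 were found among the 49120 genes with a symbol, and all 6 passed the filter on low values, a mean of at least 1 over the libraries in the scaled unit defined below. Cd34 was under 1 in N and Lgr6 in S, so they passed through their other libraries. The mice were wild-type C57BL/6 animals, 7 weeks old, in second telogen, a resting phase of the hair cycle. Epidermal cells freed from the dermis with thermolysin were sorted with antibodies against CD34 and the integrin Itga6 into CD34-negative cells (N, named non-stem cells), CD34-positive cells with high Itga6 (B, basal bulge stem cells) and CD34-positive cells with low Itga6 (S, suprabasal bulge stem cells). RNA from 4 mice was pooled for each population before amplification, so there was 1 library per group, no difference below has a replicate error, and no test between the populations was possible. N can hold any CD34-negative cell of the preparation.

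The hair follicle is divided along its length into compartments that hold stem cells of their own, and each is known by surface proteins. CD34, a sialomucin also found on blood and endothelial progenitors, marks the bulge of the mouse follicle. LGR5 and LGR6 are receptors for R-spondins, secreted proteins that strengthen Wnt signalling; in telogen skin Lgr5 is known from the lower bulge and hair germ, and Lgr6 from the isthmus above the bulge and from the epidermis. LRIG1, which restrains ErbB growth factor receptors, and PLET1, the antigen of the MTS24 antibody, are known from the isthmus and junctional zone, and CD200, a ligand that quiets myeloid cells, from the bulge and outer root sheath.

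Levels are FPKM (fragments per kilobase of transcript and per mega mapped fragments) divided by a scaling factor per library, called scaled FPKM. Depth, read from the steps between low values, was 35.3 mega fragments for N, 32.7 for B and 31.3 for S. A gene was called where the log2 ratio of scaled FPKM plus 1 was at least 1 in size. All log2 ratios below hold this added 1. Folds and their intervals are ratios of scaled FPKM without it, so at low levels a fold is larger than the log2 ratio beside it. Ranges in brackets are 95% counting intervals (exact, from estimated fragments); they hold counting error alone, and neither amplification nor variation among mice is in them. Because the libraries are bulk samples, fewer cells that use a gene and less RNA of it per cell cannot be told apart. Mitochondrial ribosomal RNA took 28.5% of the summed FPKM in N, 32.5% in B and 11.2% in S, and the mitochondrial tRNA gene mt-Tl1 had an FPKM of 1686680 in S against a listed 0 in the other libraries, so the sum was not used for scaling.

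The 6 genes did not share a pattern. Cd34 and Lgr5 were high in both bulge libraries and near the bottom in N. Lgr6 was well detected in N and B and close to 0 in S. Lrig1 was highest in N, Cd200 highest in B, and Plet1 lowest in B. In B against N, 3 of 6 were called higher (Cd34, Lgr5 and Cd200) and 1 lower (Lrig1), beside 7.27% of all 11575 genes measured called higher and 7.10% lower. In S against N, 2 of 6 were called higher (Cd34 and Lgr5) and 2 lower (Lgr6 and Lrig1), beside 9.56% and 10.9% of all genes. In S against B, 0 of 6 were called higher and 1 lower (Lgr6), beside 3.89% and 5.93% of all genes. With the values as deposited, without scaling, the split over all genes was 717 higher and 1097 lower in B against N, in place of 841 and 822, and 856 higher and 1675 lower in S against N, in place of 1107 and 1260. The first 2 comparisons share the N library, and in both the call of Cd34 was fixed by the sort on CD34. That call adds no evidence to the counts of 3 and 2 markers called higher.

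**Figure D1:**
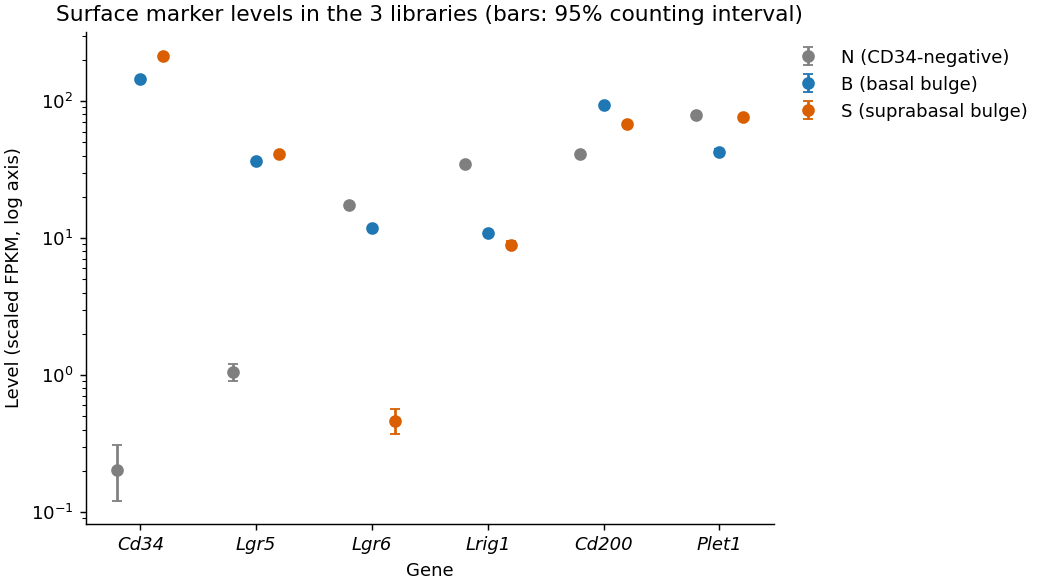
Level of each marker gene (scaled FPKM, log axis) in the N, B and S libraries, 1 point per library, with 95% counting intervals as bars, which are shorter than the points at high levels. Cd34 and Lgr5 stand far below their bulge levels in N, and Lgr6 stands at 0.463 in S against 17.4 in N and 11.9 in B.

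The promoters of 5 of the 6 genes were found in the RefSeq table (GRCm38.p6), as the 250 bases before the RefSeq start of transcription. That of Lgr5 was not listed. The windows of Cd34 and Lrig1 run slightly into the gene as GENCODE M21 places its start. Those of a gene high in both bulge libraries (Cd34), of the genes called lower in S (Lgr6 and Lrig1) and of Plet1, which had no call, are shown 5′ to 3′ on the strand of the gene, because they differ in base composition and in core motifs. Capitals mark a TATA box (TATAAA) or a GC box (GGGCGG) on either strand.
Cd34, chr1:194938571-194938820, plus strand: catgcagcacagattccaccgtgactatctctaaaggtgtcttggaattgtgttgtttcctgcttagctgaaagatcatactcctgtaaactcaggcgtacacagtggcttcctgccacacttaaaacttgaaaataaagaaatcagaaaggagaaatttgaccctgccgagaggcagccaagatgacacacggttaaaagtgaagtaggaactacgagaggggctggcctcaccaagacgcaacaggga
Lgr6, chr1:135105277-135105526, minus strand: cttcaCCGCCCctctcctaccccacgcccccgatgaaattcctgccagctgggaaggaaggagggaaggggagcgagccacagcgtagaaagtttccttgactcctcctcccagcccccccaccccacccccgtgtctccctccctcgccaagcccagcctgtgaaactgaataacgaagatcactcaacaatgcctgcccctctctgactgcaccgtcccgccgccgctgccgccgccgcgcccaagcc
Lrig1, chr6:94700146-94700395, minus strand: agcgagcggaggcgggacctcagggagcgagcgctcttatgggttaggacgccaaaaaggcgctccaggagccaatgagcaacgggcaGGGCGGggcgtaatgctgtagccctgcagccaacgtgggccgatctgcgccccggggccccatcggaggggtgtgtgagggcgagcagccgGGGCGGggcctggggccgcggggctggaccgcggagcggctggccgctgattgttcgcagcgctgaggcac
Plet1, chr9:50494275-50494524, plus strand: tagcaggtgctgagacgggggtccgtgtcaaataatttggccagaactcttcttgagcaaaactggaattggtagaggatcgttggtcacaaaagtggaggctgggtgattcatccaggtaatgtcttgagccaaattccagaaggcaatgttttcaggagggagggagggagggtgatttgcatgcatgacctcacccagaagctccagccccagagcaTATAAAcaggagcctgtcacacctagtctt
The Lrig1 window held 26 CpG dinucleotides, an observed-to-expected ratio of 0.852, and the Lgr6 window 16, a ratio of 0.686. The Cd34 window held 6 (ratio 0.446), that of Cd200, at chr16:45409054-45409303 on the minus strand and not shown, held 6 (ratio 0.55), and that of Plet1 held 3 (ratio 0.199). The median ratio over 32841 promoters was 0.374. Only the Plet1 window among the 5 held a TATA box, which began 30 bases before the start and is found in 12.4% of all promoters of this length. A GC box, found in 32.7% of promoters, stood at 2 places in the Lrig1 window and at 1 in those of Lgr6 and Cd200. Neither CTTTGA, the core of TCF/LEF sites (13.8% of promoters), nor TAATTA, a homeobox core (4.84%), was found on either strand of the 5 windows. These 4 motifs do not overlap one another in the windows, and a match is a description of the letters only. Cd34 and Lgr5 were both high in the bulge libraries, but without a window for Lgr5 this pair could not be compared. Lgr6 and Lrig1 were both called lower in S than in N, and Lrig1 in B too. A link between the windows and the levels was not tested.

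Cd34 lies on chromosome 1 (194938819 to 194961279, mm10, ENSMUSG00000016494) with 8 exons in its principal GENCODE M21 transcript. Its protein was the gate of the sort, so its levels describe the sort and are no finding. Cd34 was at 0.201 in N (0.119 to 0.310), 144 in B (142 to 147) and 215 in S (212 to 219). The N value rests on an estimated 19 fragments and the B value on 11368. The transcript was thus 718-fold higher in B than in N (466 to 1210) and 1070-fold higher in S than in N (695 to 1803). With 1 added to each level, as in all log2 ratios here, the log2 ratios were smaller, at 6.92 and 7.49. Cd34 ranked 191 in B and 147 in S among 9916 protein-coding genes measured. S was 1.49-fold above B (1.45 to 1.53), a log2 ratio of 0.57 and not a call, though both populations were sorted as CD34-positive.

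Cd34 belongs to a family with podocalyxin (Podxl) and endoglycan (Podxl2), and its relatives were scarcely detected. Podxl was at most 0.184 and Podxl2 at most 0.653 in any library, both below the filter, and were looked at outside the rule for named genes. Of the 6 genes listed with Cd34 (its relatives, the selectins that bind it and an adaptor), only the adaptor gene Crkl was measured, with 7.26 in N, 5.89 in B and 7.00 in S. Crkl was not called in any comparison. An antisense gene, Gm16897, overlaps Cd34 by 5521 bp and reached 0.0315 in N, 3.04 in B and 3.35 in S. Whether counting used strand is not given in the sources used here, so reads of the pair cannot be told apart.

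CD34 also marks endothelial cells, mast cells and some fibroblasts, so their markers were read beside it. Of 10 endothelial genes, 0 passed the filter, and the summed level of the list was 0.298 in N, 3.03 in B and 1.06 in S. Most of the B sum was Ramp2, a receptor-modifying protein gene, at 2.35, while Cdh5, Kdr and Emcn, named outside the rule, were at most 0.0779. Of 7 mast cell genes, 0 passed, with a summed level of at most 1.08, most of it Hdc (1.05 in B), and Tpsb2, Mcpt4 and Fcer1a, named outside the rule, were listed at 0 in all 3 libraries. Of 9 fibroblast genes, 3 passed. Col6a1, which encodes a chain of collagen VI, reached 0.242 in N, 13.9 in B and 25.9 in S, in the order of Cd34. Col1a2, a chain of collagen I, was at 0.103, 1.77 and 1.34, whereas Thy1 was highest in N. Col1a1 and Col3a1, the most abundant collagens of fibroblasts and named outside the rule, were at most 0.186.

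Lgr5 lies on chromosome 10 (115450311 to 115587780, minus strand, ENSMUSG00000020140), with 18 exons in the principal transcript. It was at 1.05 in N (0.906 to 1.21), 36.5 in B (35.5 to 37.4) and 40.8 in S (39.8 to 41.9). The N library was far below both bulge libraries, by 34.7-fold for B (30.1 to 40.3) and 38.9-fold for S (33.7 to 45.1), log2 ratios of 4.19 and 4.35. Those ratios ranked 42 in B and 38 in S from the top of 11575 genes. S was 1.12-fold above B (1.08 to 1.16), a log2 ratio of 0.16 and not a call. This small difference exceeded counting error. Under other scalings, pseudocounts and filters its log2 ratio was 0.06 to 0.16. A930009A15Rik, a gene on the other strand within the Lgr5 span, was at most 0.825.

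Lgr6 lies on chromosome 1 (134983301 to 135105276, minus strand, ENSMUSG00000042793), also with 18 exons. Its order was the reverse: 17.4 in N (16.9 to 17.9), 11.9 in B (11.4 to 12.4) and 0.463 in S (0.370 to 0.567). The S value rests on an estimated 89 fragments, against 4533 in N and 2543 in B. Lgr6 was 37.6-fold lower in S than in N (30.6 to 47.1) and 25.7-fold lower in S than in B (20.9 to 32.2), log2 ratios of -3.65 and -3.14. It stood at place 78 from the bottom of 11575 genes in S against N and at place 90 in S against B. In B against N the difference was 1.46-fold (1.39 to 1.54), a log2 ratio of -0.51, which was not a call. Lgr6 was the only marker of the 6 with a call between the bulge layers.

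Lgr4 is the third receptor of this kind, and was more abundant in the bulge. It reached 8.83 in N, 35.6 in B and 57.5 in S, and was called higher in B (log2 ratio 1.90) and in S (2.57) than in N. Summed over the 3 receptor genes, the level was 27.3 in N, 83.9 in B and 98.7 in S. Lgr6 made up 63.8% of that sum in N, 14.2% in B and 0.469% in S. Lgr5 made up 3.85% in N, 43.5% in B and 41.3% in S, and Lgr4 32.4%, 42.4% and 58.2%. Within a library, Lgr6 was 16.6-fold above Lgr5 in N, and Lgr5 was 3.07-fold above Lgr6 in B and 88.2-fold above it in S. These shares do not depend on the scaling between libraries.

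**Figure D2:**
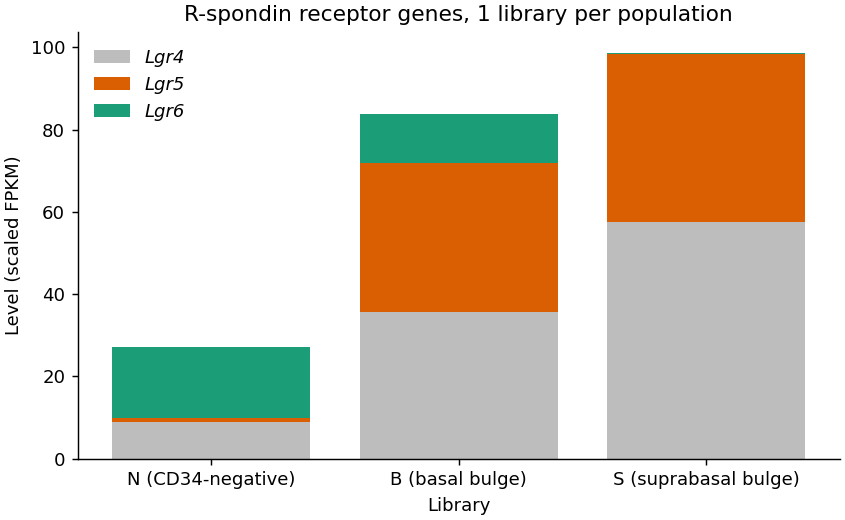
Stacked levels (scaled FPKM, linear axis from 0) of Lgr4, Lgr5 and Lgr6 in each of the 3 libraries, 1 library per bar with no error shown. Lgr6 is the largest segment in N (17.4) and cannot be seen at this scale in S (0.463), where Lgr4 and Lgr5 make up the bar.

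R-spondins bound to LGR receptors protect Wnt receptors from removal by the ubiquitin ligases RNF43 and ZNRF3, and Axin2, Rnf43 and Znrf3 are themselves known as Wnt target genes. The list of the other genes of this pathway held 10 genes, of which 7 passed the filter. In B against N, 1 of 7 was called higher and 1 lower, with a median log2 ratio of -0.48 (-0.04 over all genes). In S against N, 2 of 7 were higher and 4 lower, with a median of -1.16 (0.02 over all genes). In S against B, 0 were higher and 1 lower, with a median of -0.42 (0.06 over all genes). The shares called over all genes were 7.27% higher and 7.10% lower in B against N, and 9.56% and 10.9% in S against N. In S against B they were 3.89% and 5.93%. With 7 genes, 1 call is the least that can be counted. Under all 3 other scalings the lower calls in S were kept. The call of the Wnt co-receptor gene Lrp6 in S against N (log2 ratio 1.23) was lost with the values as deposited (0.99), and Rnf43 was then called lower in B too (-1.09).

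Among the ligands, only Rspo3 passed the filter, with 5.52 in N, 1.04 in B and 0.0459 in S, and was called lower in both bulge libraries. Rspo2, named outside the rule like the other ligands below the filter, was listed at 0 in all 3, and Rspo1 and Rspo4 were at most 0.394. Axin2 reached 7.00 in N, 4.74 in B and 0.418 in S, and was called lower in S against N (log2 ratio -2.50) and against B (-2.02). The ubiquitin ligase genes, named outside the rule, were lower in S than in N too. Rnf43 reached 7.53 in N, 3.45 in B and 2.81 in S, and Znrf3 8.61, 5.08 and 2.22. S thus had the highest sum of receptor transcripts and the lowest level of each of these 4 genes. Of the co-receptors, also outside the rule, Lrp6 was at 8.72, 13.8 and 21.9, and Lrp5 at 3.78, 4.18 and 2.87 with no call.

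**Figure D3:**
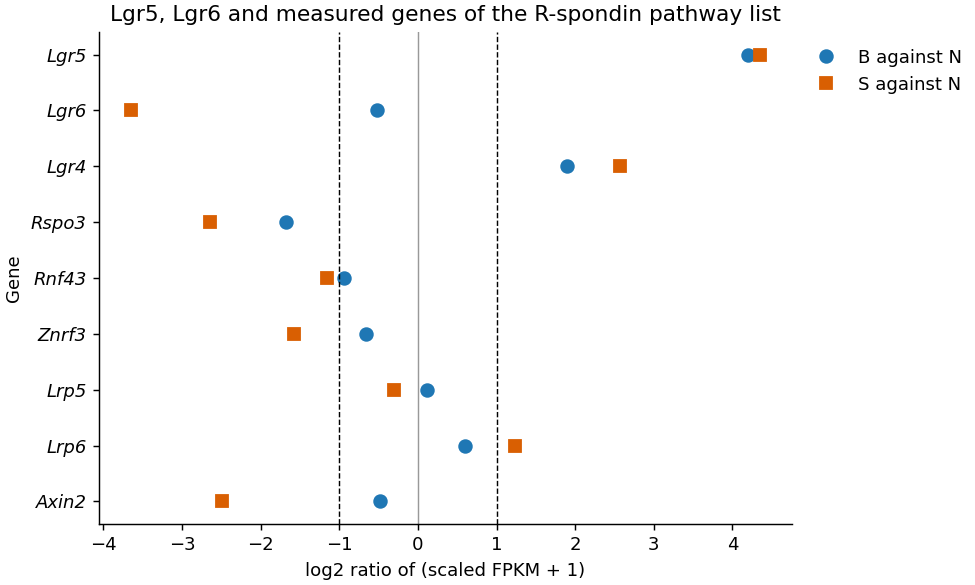
Log2 ratio of scaled FPKM plus 1 for Lgr5, Lgr6 and the 7 measured genes of the R-spondin pathway list, in B against N (circles) and S against N (squares), 1 library each, with dashed lines at the size of a call. Lgr4 and Lgr5 stand to the right in both, and Lgr6, Rspo3, Rnf43, Znrf3 and Axin2 stand past the line on the left in S.

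Lrig1 lies on chromosome 6 (94604529 to 94700158, minus strand, ENSMUSG00000030029). It was at 34.7 in N (33.9 to 35.5), 10.8 in B (10.3 to 11.3) and 8.97 in S (8.49 to 9.47). N was above both bulge libraries, by 3.21-fold over B (3.04 to 3.39) and 3.87-fold over S (3.64 to 4.11), log2 ratios of -1.60 and -1.84. B was 1.20-fold above S (1.12 to 1.30), with no call. In the bulge Lrig1 was thus lower but far from absent, at rank 2694 in B and 3462 in S of 9916 protein-coding genes. Its relatives went the other way without a call: Lrig3 reached 6.76 in N, 9.56 in B and 13.2 in S, and Lrig2, named outside the rule, 7.73, 9.49 and 11.9. Slc25a26, a mitochondrial carrier gene on the other strand, overlaps the end of Lrig1 by 144 bp and was at 2.24, 0.981 and 1.08.

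The list of LRIG relatives and of the receptors that LRIG1 acts on (ErbB receptors, Met and Ret) held 8 genes, 6 of them measured. In B against N, 0 of 6 were higher and 1 lower (median log2 ratio -0.03). In S against N, 0 were higher and 1 lower (median 0.19), and in S against B 0 and 1 (median 0.26). Met, the receptor of hepatocyte growth factor, reached 12.7 in N, 9.19 in B and 2.68 in S and was the lower gene in both comparisons of S. Erbb3, a receptor of neuregulins, was at 11.2, 4.60 and 5.80 and was called lower in B (log2 ratio -1.13), a call that another scaling just missed (-0.996). In S against N it was not called (-0.85) but reached -1.07 under another scaling, which would make 2 lower genes there. With 6 genes, 1 call is the least that can be counted; over all genes the shares were 7.27% higher and 7.10% lower in B against N, 9.56% and 10.9% in S against N and 3.89% and 5.93% in S against B. Egfr, named outside the rule, reached 17.0 in N, 21.5 in B and 23.7 in S with no call. The ratio of Lrig1 to its relatives and to Egfr was therefore highest in N.

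Cd200 lies on chromosome 16 (45382135 to 45409053, minus strand, ENSMUSG00000022661). It was at 40.8 in N (39.5 to 42.1), 93.9 in B (91.7 to 96.1) and 67.6 in S (65.7 to 69.6). The 3 intervals did not overlap, but the differences were small beside those of Cd34 and Lgr5. B was 2.30-fold above N (2.21 to 2.40), a log2 ratio of 1.18 and a call, while S was 1.66-fold above N (1.59 to 1.73), a log2 ratio of 0.72 and no call. S was below B (log2 ratio -0.47, no call). Cd200 was an abundant transcript in every library, at rank 702 in N, 288 in B and 396 in S of 9916. Within N it was 203-fold above Cd34.

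The receptors of CD200 are carried by myeloid cells, and their genes were close to 0 in all 3 libraries. Of Cd200r1, Cd200r2, Cd200r3 and Cd200r4, all looked at outside the rule, 0 passed the filter, and the highest value was 0.157 for Cd200r1 in B. Cd200r2 and Cd200r4 were listed at 0 in all 3. CD200 is also found on some T cells. Of 8 T and NK cell genes 1 passed, Thy1, with 18.3 in N, 4.99 in B and 0.673 in S, and the summed level of that list was 20.4 in N, 6.15 in B and 2.47 in S. In N and B most of that sum was Thy1, which is on the fibroblast list too. The others stayed below the filter and were named outside the rule. Cd3e was highest in N (1.18 in N, 0.292 in B and 0.487 in S), as were Ptprc, Trdc and Cd3d at lower levels. Cd3g, Nkg7 and Cd2 were highest in a bulge library but at most 0.482, 0.374 and 0.0675. Of 7 Langerhans and myeloid cell genes, 3 passed. H2-Aa, a class II molecule, was at 13.5, 4.81 and 4.51, and its partner chain gene Cd74 at 6.19, 3.03 and 3.99. The lysosomal gene Cd68 was at 1.69, 2.11 and 6.02. Cd207, Lyz2, Itgam and Csf1r missed the filter and were named outside the rule. Of these, Cd207, Lyz2 and Itgam were highest in S, with 0.343, 0.756 and 0.111. Csf1r was highest in N but reached only 0.106.

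Plet1 lies on chromosome 9 (50494525 to 50505482, plus strand, ENSMUSG00000032068), with 4 exons in its principal transcript. It was at 78.9 in N (76.8 to 81.1), 42.9 in B (41.1 to 44.6) and 76.6 in S (74.1 to 79.1). N and S differed by less than counting error, with S at 0.970 of N (0.930 to 1.01), and the sign of that difference turned under scaling to the same sum of nuclear protein-coding genes (log2 ratio 0.06 in place of -0.04). B was the low library, 1.84-fold below N (1.75 to 1.93) and 1.79-fold below S (1.70 to 1.88), with log2 ratios of -0.87 for B against N and 0.82 for S against B. Neither was a call, though with the values as deposited B against N reached -1.03, where the median of all genes was -0.18. Plet1 was the most abundant marker of the 6 in N and ranked 352 of 9916 in S, where Lrig1, known from the same compartments, ranked 3462. Plet1 was 2.27-fold above Lrig1 in N, 3.97-fold in B and 8.53-fold in S. The antisense gene Plet1os covers all of Plet1 and was at most 0.191.

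**Figure D4:**
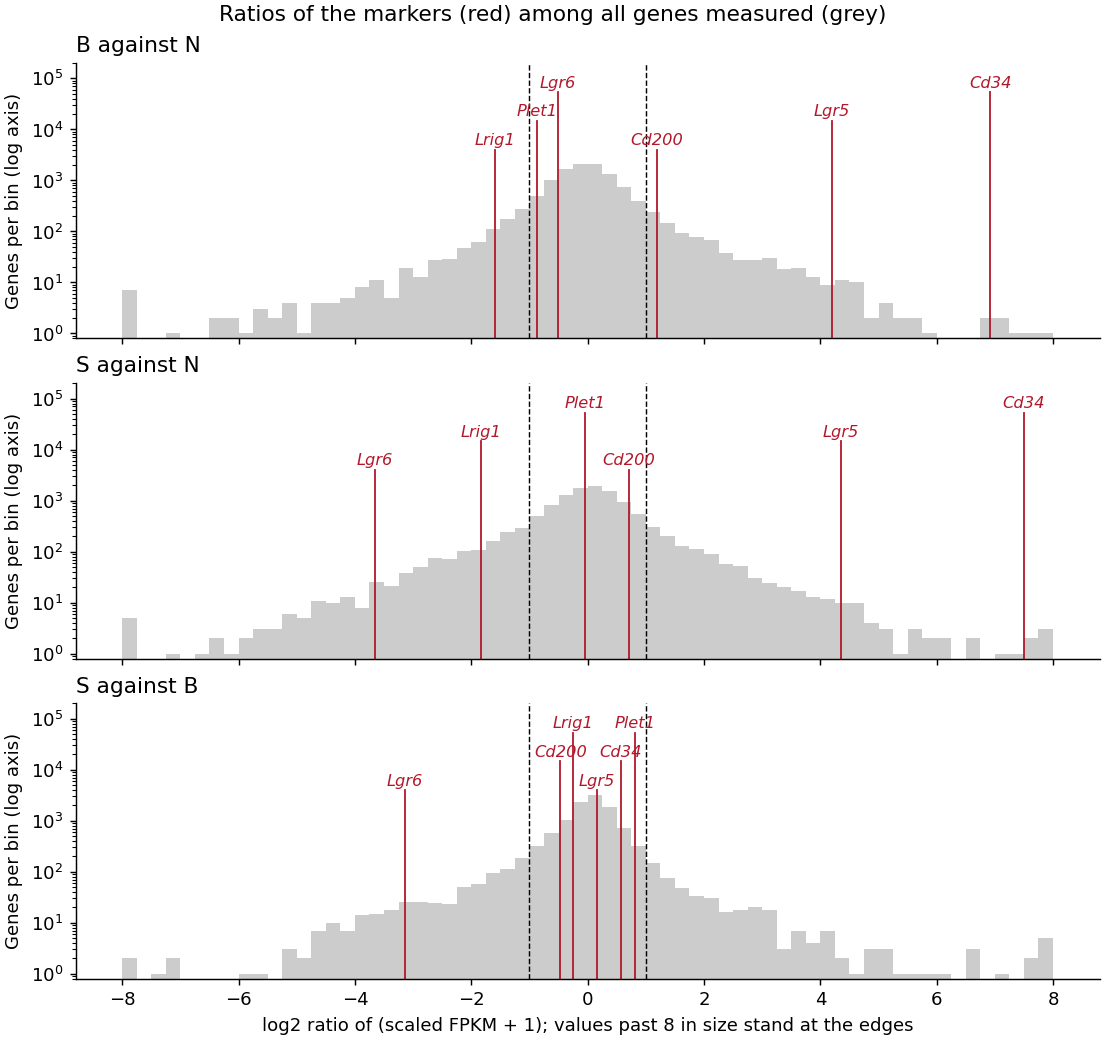
Log2 ratios of scaled FPKM plus 1 over all 11575 genes measured (grey bars, genes per bin on a log axis) in the 3 comparisons, with each marker gene as a red line and dashed lines at the size of a call. Cd34 and Lgr5 lie far to the right against N, Lgr6 is the marker farthest to the left in both comparisons of S, and the other markers lie between -1 and 1 in S against B.

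Genes of the compartments that are not among the 6 gave the setting. Of 10 other bulge genes, 9 were called higher in B and 9 in S against N, beside 7.27% and 9.56% of all genes. The medians of the 10 were 1.90 and 2.51 (-0.04 and 0.02 over all genes). B and S were sorted by a bulge marker, so these counts describe the sort and are no independent support. The lists of bulge and upper follicle genes were also chosen with earlier results of these data known. Krt15, named outside the rule, was short of a call in B (log2 ratio 0.87) and reached 1.02 under another scaling. Among them were the transcription factor gene Lhx2 (0.911 in N, 35.0 in B and 56.1 in S), Postn, a matrix protein gene (23.6, 654 and 657) and the Wnt antagonist relative Dkk3 (1.15, 39.3 and 11.1). Of 4 measured upper follicle and isthmus genes, 3 were lower in B and 3 in S against N, beside 7.10% and 10.9% of all genes. Their medians were -1.95 and -4.29. In S against B 1 was higher and 3 lower, beside 3.89% and 5.93% of all genes. The defensin gene Defb6 reached 326 in N, 60.3 in B and 9.37 in S, while the keratin gene Krt79 reached 37.8, 9.85 and 2.20, and Ly6a, the Sca-1 antigen, 150.1, 35.0 and 1.69. The fourth, the transcription factor gene Gata6, named outside the rule, was highest in S (2.45, 0.965 and 3.78) and was called higher in S against B (log2 ratio 1.28). Gli1, also outside the rule and below the filter, was highest in B (0.0349, 1.37 and 0.208). Lrig1 stood in the same order as Defb6, Krt79 and Ly6a, with smaller differences, and Plet1 did not. Lrig1 and Plet1 are also known from the sebaceous duct. Of 4 measured sebaceous genes, 2 were called lower in S than in N, Fasn (10.8, 3.61 and 3.33) and Scd1 (23.8, 11.7 and 6.38). The other 2 went the other way: Mgst1 (14.3, 24.7 and 36.6) was called higher, and Plin2, named outside the rule (6.58, 9.26 and 11.4), was not called. Over all genes the shares in S against N were 9.56% higher and 10.9% lower, and with 4 genes 1 call is the least that can be counted. The summed level of all 8 listed sebaceous genes was 56.5, 50.5 and 58.9.

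Of 10 other surface antigens used to sort epidermal cells, all were measured. In B against N 1 was higher and 2 lower, in S against N 1 and 2, and in S against B 1 and 1. Over all genes 7.27% were higher and 7.10% lower in B against N, 9.56% and 10.9% in S against N, and 3.89% and 5.93% in S against B, so 1 or 2 calls among 10 genes do not set this list apart. Cdh3, named outside the rule, would add a lower gene in S against N under another scaling (log2 ratio -1.07 in place of -0.86). Itga6, the second antibody of the sort, reached 115 in N, 49.3 in B and 33.1 in S, so its order between B and S describes the sort and is no finding. S was gated as low in Itga6, so the lower call of Itga6 in S against N cannot be told apart from that gate. The lower genes against N were Itga6 and Ly6a, and Ly6a is on the upper follicle list too. Epcam, an epithelial adhesion molecule gene, was at 24.6, 21.7 and 55.9 and was called higher in S against both, a call that was lost against N with the values as deposited (log2 ratio 0.90). Cd24a, named outside the rule, was at 83.2, 198 and 130, in the order of Cd200. Of 7 melanocyte genes only Mitf was measured, at 2.08, 16.4 and 34.4 in the order of Cd34, and Dct, Tyrp1 and Pmel, outside the rule, were at most 0.513. The part of these other cells in the levels of the 6 markers was not tested.

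The genes with the pattern nearest to each marker were found among 5374 other protein-coding genes with a mean of at least 5, by the Euclidean distance of log2 values centred over the 3 libraries. With 3 libraries many genes lie close to any pattern, so nearness is a description. Nearest to Cd34 were the inner bulge keratin gene Krt6a (0.549 in N, 72.3 in B and 115 in S, distance 1.07), Myoc and Mme. All were well short of the range of Cd34. Nearest to Lgr5 were the lipid phosphatase gene Plpp1 (0.232, 26.6 and 28.0, distance 0.212), Sgcd and the interleukin 31 receptor gene Il31ra (0.335, 28.5 and 24.4).

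Nearest to Lgr6 was Lgals9, which encodes galectin 9, with 19.5 in N, 11.8 in B and 0.564 in S (distance 0.113). The retinol dehydrogenase gene Adh7 (28.4, 26.4 and 1.69) and Vsnl1 (14.3, 14.3 and 0.469) followed, both at close levels in N and B and near the bottom in S. Nearest to Lrig1 were H2-Ab1, a class II chain gene (12.2, 3.30 and 2.54, distance 0.0464), Parp10 and the transporter gene Abcc1. Nearest to Cd200 were the aldehyde dehydrogenase gene Aldh2 (6.65, 16.8 and 12.3, distance 0.0597), C1d and Arhgef11. Nearest to Plet1 were the protease gene Tmprss13 (7.67, 4.03 and 7.65, distance 0.0559), Rfc3 and Myc, a transcription factor gene (37.8, 21.5 and 39.6). Among the 6 markers themselves the nearest pair was Lrig1 and Plet1, at a distance of 1.28 though their orders differ, and the farthest was Cd34 and Lgr6, at 8.03. Distances are small where ranges are small: Cd200, highest in B, and Plet1, lowest in B, were 1.46 apart. Cd34 and Lgr5, which share an order, were 2.41 apart.

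**Figure D5:**
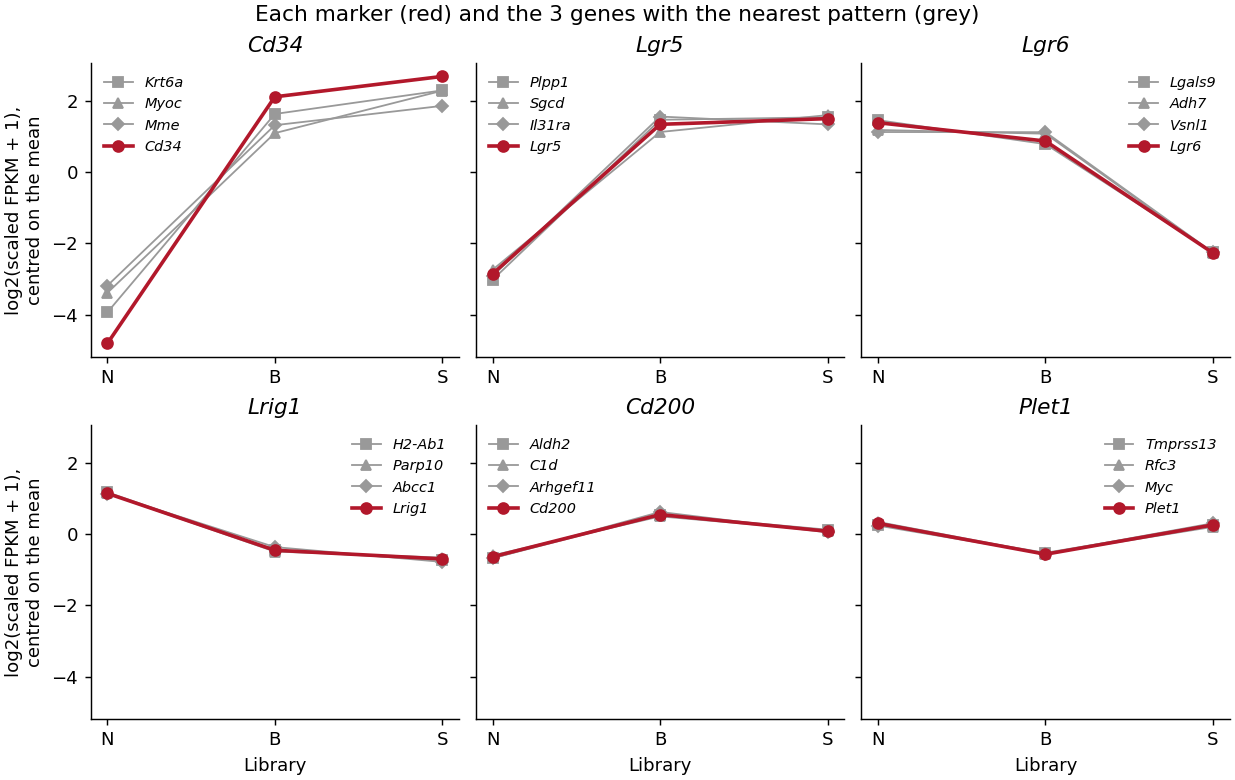
Log2(scaled FPKM + 1), centred on its mean over the 3 libraries, of each marker gene (red) and of the 3 genes with the nearest pattern (grey), in N, B and S with 1 library each. Cd34 and Lgr5 climb from N to both bulge libraries, Lgr6 drops in S, and Plet1 dips in B.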

How the data were processed

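Gene expression was measured by RNA sequencing in 3 libraries, 1 for each sorted population. Per the labels' protocols, RNA was amplified from poly(T) and random primers and sequenced with paired reads of 75 bp. The authors deposited FPKM values per Ensembl gene with gene positions. The file header says FPKM for N and S and names only the population for B, whose unit was taken from its values. Per the submitters' processing notes, TopHat2 2.0.12, Cufflinks 2.1.1, DESeq2 and mm10 were used, with no role given. The annotation is not given in the sources used here.

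Symbols were found for 49195 of 49452 rows, and rows of 1 symbol were summed. FPKM was divided by median-of-ratios factors computed from the 18559 genes detected in every library (factors of 1.10, 0.981 and 0.923 in N, B and S). The 11575 genes whose mean reached 1 were measured further. Log2 ratios used a pseudocount of 1 on the log2(value + pseudocount) scale, which understates differences of low genes, and folds used none. Depth came from 1-exon genes of at least 3000 bp, where 95.7% to 97.9% of values under 10 fragments lay within 0.1 of a whole fragment (20.0% by chance). Fragments per gene were estimated with the principal GENCODE M21 transcript, so shorter isoforms would widen the 95% intervals (Poisson for levels, Clopper-Pearson for ratios). All 6 genes had the same coordinates in GENCODE M21. The call rule was run on simulated data that held counting error alone. That run cannot show how the rule fares with amplification or variation among mice. No difference was tested, since each group was 1 library.

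The members, lists and rules were chosen with earlier results of these data known. Named genes are the 6 markers, up to 3 genes per list with the largest ratio among those measured, the most abundant gene of lists for other cell types, and the 3 nearest patterns per marker; any other gene, neighbours and overlapping genes among them, was named outside the rule, after its values were seen. Alternatives were other scalings, pseudocounts and filters. Python 3.11.15, numpy 2.4.6, pandas 2.3.3 and scipy 1.17.1 were used.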

Additional observations from a re-analysis of the deposited data

How the results depend on the processing

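The 18 log2 ratios of the 6 markers were recomputed under 7 alternatives. The changes of filter decide only which genes are kept, so under them no marker ratio could change. The calls of Cd34 against N were fixed by the sort. Of 126 values, these included, 125 kept their call. The exception was Plet1 in B against N, which was called lower with the values as deposited, so that 2 markers were lower there in place of 1. Without scaling the median of all genes shifted by -0.14 in B against N and -0.21 in S against N, and relative to that median Plet1 was at -0.85 (-0.83 with scaling). The smallest ratio among the calls was that of Cd200 in B against N, at 1.02 to 1.33 over the alternatives. Lgr6 in S ranged from -4.96 to -2.04 against N and from -4.41 to -1.63 against B.

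Counts over all genes moved with the pseudocount and the filter. With a pseudocount of 5 they were 308 higher and 349 lower in B against N, 447 and 556 in S against N, and 190 and 277 in S against B. With a mean of at least 5 they were 373 and 419, 546 and 611, and 239 and 341, out of fewer genes (5860). With a pseudocount of 0.1, 1074 genes were lower in S than in B. No paired analysis was possible because each group was 1 library. No library could be left out, for the same reason.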

Other observations

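Protein-coding genes within 200 kb of the 6 markers were looked at after the values of the markers were seen. Of 34 such genes, 21 were measured. In B against N, 2 of the 21 were called higher and 0 lower, in S against N 2 were higher and 2 lower, and in S against B 1 was higher (Plxna2) and 1 lower (Ube2t). Over all genes 7.27% were higher and 7.10% lower in B against N, 9.56% and 10.9% in S against N, and 3.89% and 5.93% in S against B, so counts of 1 or 2 among 21 lie near the background. The higher genes were Plxna2, a semaphorin receptor gene 121950 bp from Cd34 (3.28 in N, 20.0 in B and 43.2 in S), and Dixdc1, a Wnt pathway gene 157270 bp from Plet1 (0.335, 2.98 and 3.47). The lower genes in S both neighbour Lgr6: the ubiquitin-conjugating enzyme gene Ube2t, 9139 bp away (3.24, 2.16 and 0.466), and Rnpep (3.71 in N and 1.31 in S). Of the 5 measured neighbours of Lgr5, 0 were called in any comparison.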
